A study of Mus musculus with 12 samples.

Results

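The collagen genes described here are the 44 genes whose names are Col, a number, the letter a and a number, such as Col6a1 or Col17a1. All 44 were present in both deposited count tables, which shared 37931 gene names. RNA had been sequenced from stem cells of the hair follicle, taken from the back skin of mice and sorted as H2BGFP-positive, Sca-1-negative, CD34-positive and CD49f-positive. The tissue was taken in anagen, the growth phase of the hair cycle, or in early telogen, the resting phase that follows, from mice with or without loss of the forkhead transcription factor Foxc1 in keratin 14 cells. Knockout (KO) mice carried K14-H2BGFP, K14Cre and Foxc1 fl/fl, and wild-type (WT) controls carried K14-H2BGFP and Foxc1 fl/fl without the Cre, so the green fluorescent histone and the floxed alleles were common to all groups. The keratin 14 promoter is active in basal cells of the whole epidermis as well as in the follicle. The anagen groups held 2 KO libraries (KO 1 at P29 and KO 2 at P31, both female) and 3 WT libraries (WT 1 at P29, female, WT 2 at P30, male, and WT 3, male, titled P31 with an age label of 43 days). The early telogen groups held 4 KO libraries (KO 1, KO 2 and KO 3 at P47 and KO 5, titled P43 with an age label of 47 days) and 3 WT libraries (WT 1, WT 3 and WT 4 at P47). KO 2 and WT 4 of early telogen were male and the other 5 female. Whether the libraries came from separate animals is not stated in the labels, and the p-values therefore rest on the spread between libraries, which may be technical.

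Collagens are triple-helical proteins of the extracellular matrix. Basal keratinocytes and follicle stem cells anchor to their basement membrane through the transmembrane collagen XVII in hemidesmosomes and through anchoring fibrils of collagen VII, and the membrane itself is built on a network of collagen IV chains with collagen XVIII. Fibrillar collagens I, III and V form the fibres of the dermis and are made mainly by fibroblasts, while collagen VI forms beaded filaments where cells meet the matrix. In the hair follicle stem cell niche, collagen XVII is known for keeping stem cells attached and in reserve.

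Promoter sequences are shown for Col6a1, the only collagen whose KO effect passed as different between stages, and Col4a4, the only one that passed between KO and WT, and for Col6a2, the neighbour of Col6a1. Col4a4 had few KO counts and entered its early telogen test through the WT libraries alone. RefSeq promoter windows (GRCm38.p6, 250 bases before to 50 bases after a start) were found for 35 of the 44 genes, in 38 windows. Each is printed 5′ to 3′ on the strand of its gene, and capitals mark GTAAACA, a form of the forkhead binding motif, or the GC box GGGCGG, both searched on both strands. The Col6a1 window lies at chr10:76725995-76726294 on the minus strand and the Col6a2 window shown at chr10:76623581-76623880, also on the minus strand. A second Col6a2 window, at chr10:76623355-76623654, is not printed and holds 3 GC boxes against 1 in the window shown. The Col4a4 window at chr1:82586800-82587099, minus strand, spans the start of Col4a3 as well, which reads the other way from 71 bases away.
Col6a1: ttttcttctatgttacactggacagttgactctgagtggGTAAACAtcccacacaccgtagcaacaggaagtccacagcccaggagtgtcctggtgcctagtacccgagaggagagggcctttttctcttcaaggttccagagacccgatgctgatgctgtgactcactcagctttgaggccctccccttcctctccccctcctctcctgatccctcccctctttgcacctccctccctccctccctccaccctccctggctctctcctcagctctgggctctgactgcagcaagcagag
Col6a2: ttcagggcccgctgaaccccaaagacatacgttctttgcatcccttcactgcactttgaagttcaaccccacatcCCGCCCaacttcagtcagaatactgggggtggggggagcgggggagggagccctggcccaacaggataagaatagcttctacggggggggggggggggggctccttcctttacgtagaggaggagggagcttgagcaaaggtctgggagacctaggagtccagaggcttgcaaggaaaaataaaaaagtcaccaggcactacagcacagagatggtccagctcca
Col4a4: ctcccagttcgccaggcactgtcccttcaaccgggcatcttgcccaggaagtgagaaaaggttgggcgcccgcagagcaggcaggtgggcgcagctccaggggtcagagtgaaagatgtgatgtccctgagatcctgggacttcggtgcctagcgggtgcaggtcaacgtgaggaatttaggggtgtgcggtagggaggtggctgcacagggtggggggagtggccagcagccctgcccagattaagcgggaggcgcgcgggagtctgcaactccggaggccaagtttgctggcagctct
GTAAACA was found in 1 of the 38 collagen windows (2.63%), that of Col6a1, against 3.65% of 32851 promoter windows of all genes. The shorter TAAACA, which is part of it, was found in 6 collagen windows (15.8%) against 13.4% of all. A GC box was found in 23 of the 38 (60.5%) against 35.7% of all windows, and the Col6a1 and Col4a4 windows had none. A match describes the letters in the window and is not a measured binding site.

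Foxc1 was checked in every library. It was at 0.206 and 0.276 CPM (counts scaled to 1000000 gene counts in the library) in anagen KO against 34.6 to 116 CPM in anagen WT, and at 0.910 to 3.11 CPM in early telogen KO against 43.8 to 61.2 CPM in early telogen WT. The summed level of 10 hair follicle stem cell markers, among them Krt5, Krt14, Krt15 and Cd34, was 21842 to 36126 CPM over the 12 libraries. In edgeR's quasi-likelihood test, described below, Cd34 alone of the 10 passed between KO and WT. It was lower in early telogen KO, where 9 of the 10 had a negative log2 fold change and 0.457% of all genes passed as lower. None passed in anagen, where 6 of the 10 were negative. Total gene counts were 29025553 to 54482469 in the 5 anagen libraries and 2662083 to 11821916 in the 7 early telogen libraries, with the lowest in KO 5. Each stage was deposited in its own table, so stage, table and depth cannot be told apart. In bulk RNA, fewer cells of a type and less RNA per cell cannot be told apart either. Of the early telogen libraries, KO 2 and WT 3 stood apart in markers of other cells. The sum of 9 hair and epidermal differentiation markers was 4960 CPM in KO 2 and 232 CPM in WT 3 against 942 to 2037 CPM in the other 5, and that of 10 endothelial markers was 9.36 CPM in WT 3.

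Collagen transcripts made up 0.613% to 1.21% of gene counts per library. Col17a1 was the most abundant collagen in all 12 libraries, with 31.8% to 73.9% of the collagen counts. Between genes, levels are compared per kilobase (kb) of exon. Col17a1 stood at 705 CPM per kb in anagen WT, 499.5 in anagen KO, 1290 in early telogen WT and 925 in early telogen KO. In anagen WT the next were Col18a1 (169 CPM per kb), Col4a1 (79.8), Col4a2 (68.3), Col16a1 (61.4) and Col6a1 (42.8). In early telogen WT they were Col18a1 (107 CPM per kb), Col6a1 (76.5), Col1a2 (56.8), Col1a1 (55.7) and Col8a2 (45.6). Col6a1 thus had rank 6 of the 44 in anagen WT and rank 3 in early telogen WT, but rank 15 in anagen KO, where its level was 3.15 CPM per kb.

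**Figure D1:**
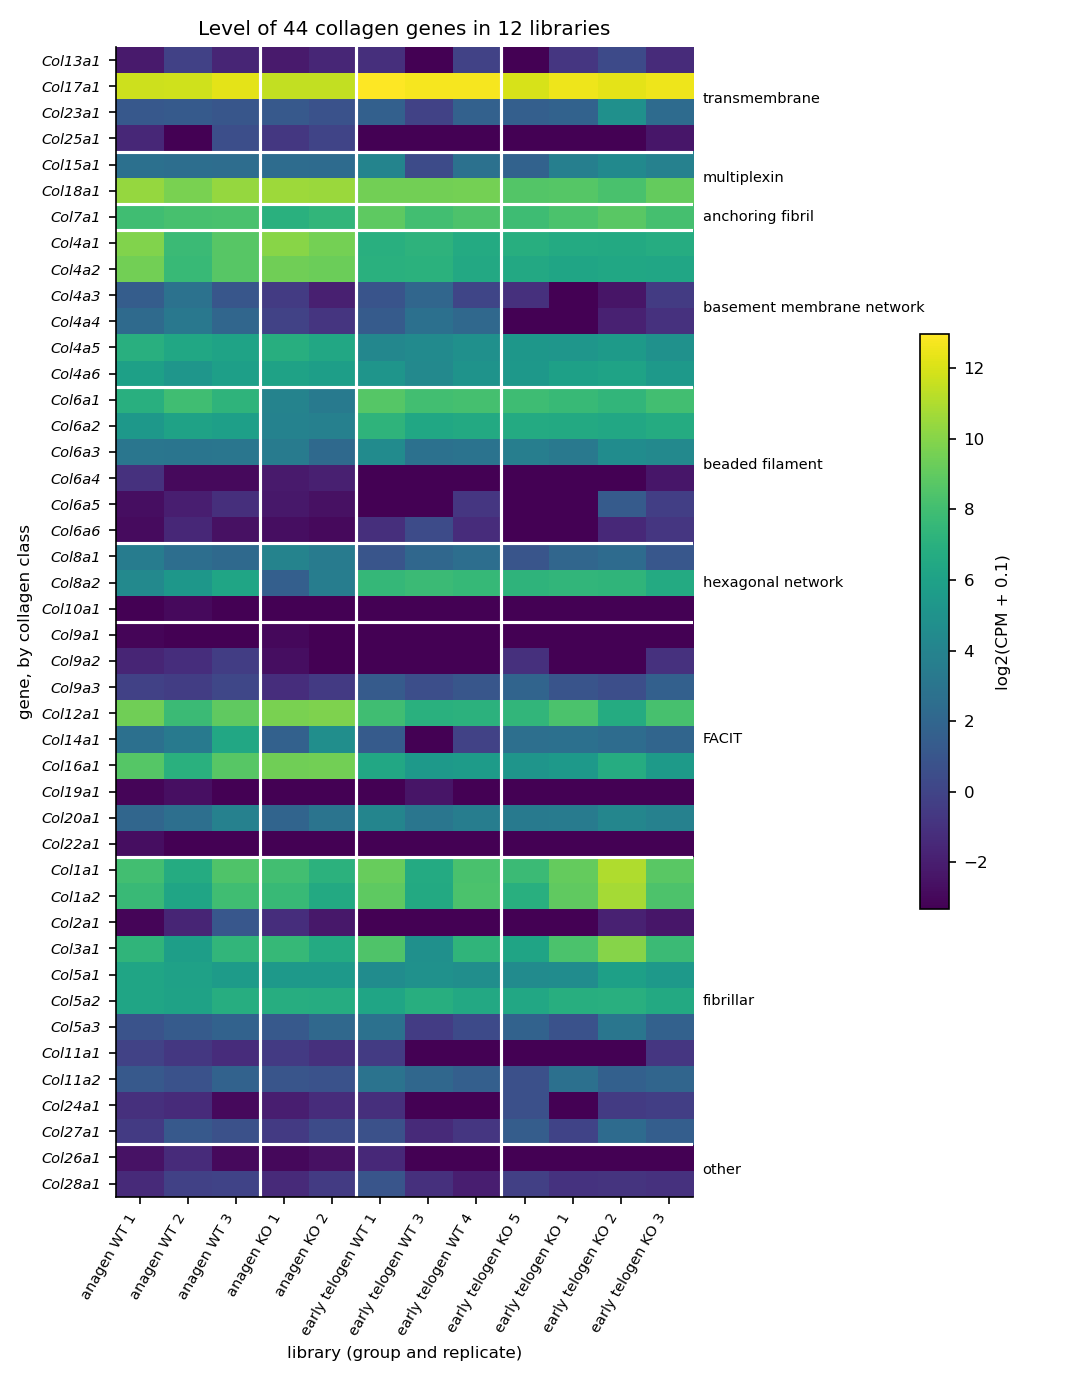
Level of the 44 collagen genes (rows, by collagen class) in the 12 libraries (columns, by group), as log2(CPM + 0.1) on the colour scale. Col17a1 is brightest in every library, and Col6a1, Col6a2 and Col8a2 are darker in both anagen KO libraries than in the 10 others.

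The tests were edgeR's quasi-likelihood test on counts, with Benjamini-Hochberg adjustment over all genes tested and a threshold of 0.05, and 35 of the 44 collagens had enough counts for at least 1 of the 5 comparisons. Of these, 27 were tested in all 5 and 15 passed in at least 1. The other 9 (Col6a4, Col6a5, Col6a6, Col9a1, Col10a1, Col13a1, Col19a1, Col22a1 and Col26a1) had at most 83 counts each over the 12 libraries. Because a gene can enter a test through the group in which it is high, counts of called members are read only against the share of all genes called. The comparisons of KO with WT, of the stages, and of the KO effect between stages use the same libraries and are not independent of each other. The SE printed with a log2 fold change was worked back from the test. It is the absolute log2 fold change over the square root of the F statistic.

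In anagen, no collagen passed between KO and WT, and the test reached no gene at all, with 0 of 14409 (0%) called. Foxc1 itself had a log2 fold change of -8.19 and an adjusted p of 0.0522 in edgeR, so a lack of calls with 2 against 3 libraries does not show that the levels were alike. At an unadjusted p under 0.05 there were 8 of the 35 collagens tested and 1456 genes in all. DESeq2 called 6 of 44 collagens lower (Col4a3, Col4a4, Col6a1, Col6a2, Col7a1 and Col8a2) and none higher. Of all 22214 genes in that fit it called 408 lower and 91 higher. The median log2 fold change was -0.35 for the 35 collagens and 0.02 for all genes. Both KO values lay below all 3 WT values for 11 collagens, a pattern found in 11.2% of genes tested, and above them for 3, a pattern found in 18.5%. Reads placed at more than 1 position, which were not counted for genes, were 31.1% and 32.8% of the KO totals and 20.1% to 25.8% of the WT totals, and their part in the result was not tested.

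In early telogen, 1 of 29 collagens tested passed between KO and WT, Col4a4, which fell, where 0.956% of 12030 genes passed and 0.457% passed as lower. Col4a4 entered this test through the WT libraries alone, so its call is a description and no further support. The KO values lay below all WT values for 6 collagens (3.37% of genes) and above them for 3 (9.75%). From anagen to early telogen in WT, 4 of 31 collagens rose and 6 fell, where 29.5% of 12718 genes passed, 13.6% as higher and 15.9% as lower. In KO, 4 of 27 rose and 7 fell, where 22.2% of 12771 genes passed, 10.2% as higher and 12% as lower. With DESeq2's size factors the KO count was 7 higher and 7 lower, and without KO 5 of early telogen it was 8 higher. Of all genes, 1380 of 12771 were higher and 1454 lower with the size factors, and 1003 of 12649 higher without KO 5. The WT count of 6 lower was 3 without anagen WT 3, 3 without early telogen WT 3 and 2 without early telogen WT 4. Of all genes, 1699 of 12161, 1275 of 13723 and 1257 of 13757 were lower in these fits. The groups did not overlap between stages for 5 collagens higher (18% of genes) and 8 lower (29.9%) in WT, and for 8 higher (21.5%) and 7 lower (23.5%) in KO. The KO effect differed between the stages for 1 of 31 collagens, Col6a1, which was higher, where 0.144% of 13193 genes passed, 0.129% as higher and 0.0152% as lower.

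**Figure D2:**
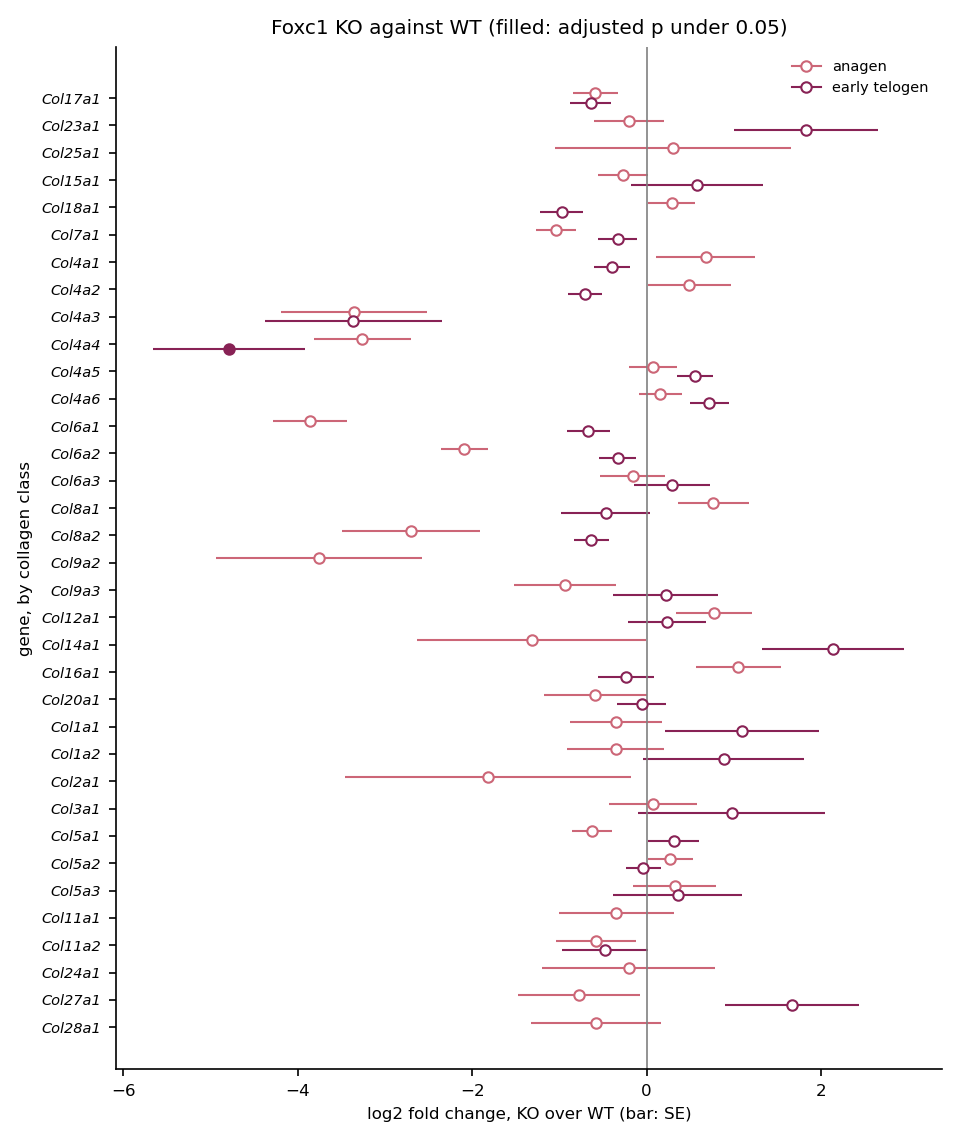
Log2 fold change of KO over WT for each collagen tested, by class, in anagen and in early telogen, with bars for the SE worked back from the test. Filled points passed the edgeR test. Col4a4 in early telogen is the only filled point, and it entered that test through the WT libraries alone. Col6a1 in anagen lies at -3.86.

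Col6a1 encodes a chain of collagen VI, a heterotrimer that needs the products of Col6a1 and Col6a2 together with a longer chain such as that of Col6a3. Its level was 15.6 and 10.3 CPM in anagen KO and 120, 252 and 155 CPM in anagen WT. In early telogen it was 240, 198, 165 and 264 CPM in KO 5, KO 1, KO 2 and KO 3, and 407, 255 and 278 CPM in WT 1, WT 3 and WT 4. Both anagen KO libraries were thus far below every other library, while the early telogen KO and WT ranges overlapped. The anagen KO level was 14.5-fold below WT (log2 fold change -3.86, SE 0.43, adjusted p 0.0522 in edgeR), and a fit over all 12 libraries called it, with an adjusted p of 0.000371 in edgeR. Both anagen KO libraries were female, and the female WT library was the one at 120 CPM. In early telogen the difference was -0.67 on the log2 scale (SE 0.25, edgeR adjusted p 0.276). The log2 fold change of KO over WT was higher in early telogen than in anagen by 3.17 (SE 0.48, edgeR adjusted p 0.0229). That call was lost without anagen KO 1 (edgeR adjusted p 0.0518), anagen KO 2 (0.135), early telogen KO 5 (0.0572), WT 3 (0.0809) or WT 4 (0.0655).

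Col6a2, which lies 85.2 kb downstream of Col6a1 on the same strand, was at 14.5 and 13.2 CPM in anagen KO and at 41.3, 67.0 and 58.4 CPM in anagen WT. In early telogen its levels were 98.0, 96.3, 86.4 and 105 CPM in KO 5, KO 1, KO 2 and KO 3, and 152, 82.3 and 95.4 CPM in WT 1, WT 3 and WT 4. The anagen KO libraries again lay below all others, and the early telogen groups overlapped. The log2 fold change was -2.09 in anagen (SE 0.27, edgeR adjusted p 0.0586) and -0.33 in early telogen (SE 0.22, edgeR adjusted p 0.588). The fit over all 12 libraries called the anagen value, with an adjusted p of 0.00205 in edgeR. The difference between the stages was 1.74 (SE 0.35, edgeR adjusted p 0.0837), and it passed without anagen WT 1 (0.0234).

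Col6a3, the third main chain, did not show this pattern. It was at 10.6 and 4.72 CPM in anagen KO and at 8.09, 7.77 and 8.34 CPM in anagen WT, so the WT values lay between the KO values, with a log2 fold change of -0.16 (SE 0.38, edgeR adjusted p 0.923). Without anagen KO 2 the sign turned, to 0.30. Its early telogen levels were 9.56 to 23.5 CPM in KO and 6.49 to 22.5 CPM in WT. The ratio of Col6a1 to Col6a2, per kb, was 1.14 and 1.57 in anagen KO and 3.89 to 5.50 in anagen WT. It was 2.79 to 3.70 in early telogen KO and 3.93 to 4.55 in early telogen WT, so that at both stages every KO library was below every WT library. In anagen the ratio restates the larger fall of Col6a1, and it was not tested at either stage.

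Between the stages both chains rose in both genotypes. In WT, Col6a2 rose 2.08-fold (log2 fold change 1.06, SE 0.25, edgeR adjusted p 0.0129) and kept its call with each library left out. Col6a1 rose 1.88-fold in WT (0.91, SE 0.29, edgeR adjusted p 0.0428), but the nearest values of the stages, 252 and 255 CPM, almost met. Its call was lost without anagen WT 1 (edgeR adjusted p 0.0873), anagen WT 3 (0.117), or early telogen WT 1 (0.122), WT 3 (0.0745) or WT 4 (0.0828). In KO, Col6a1 rose 17.0-fold (4.09, SE 0.39, edgeR adjusted p 8.14e-05) and Col6a2 rose 6.99-fold (2.81, SE 0.27, edgeR adjusted p 8.49e-05), and both kept the call with each library left out.

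**Figure D3:**
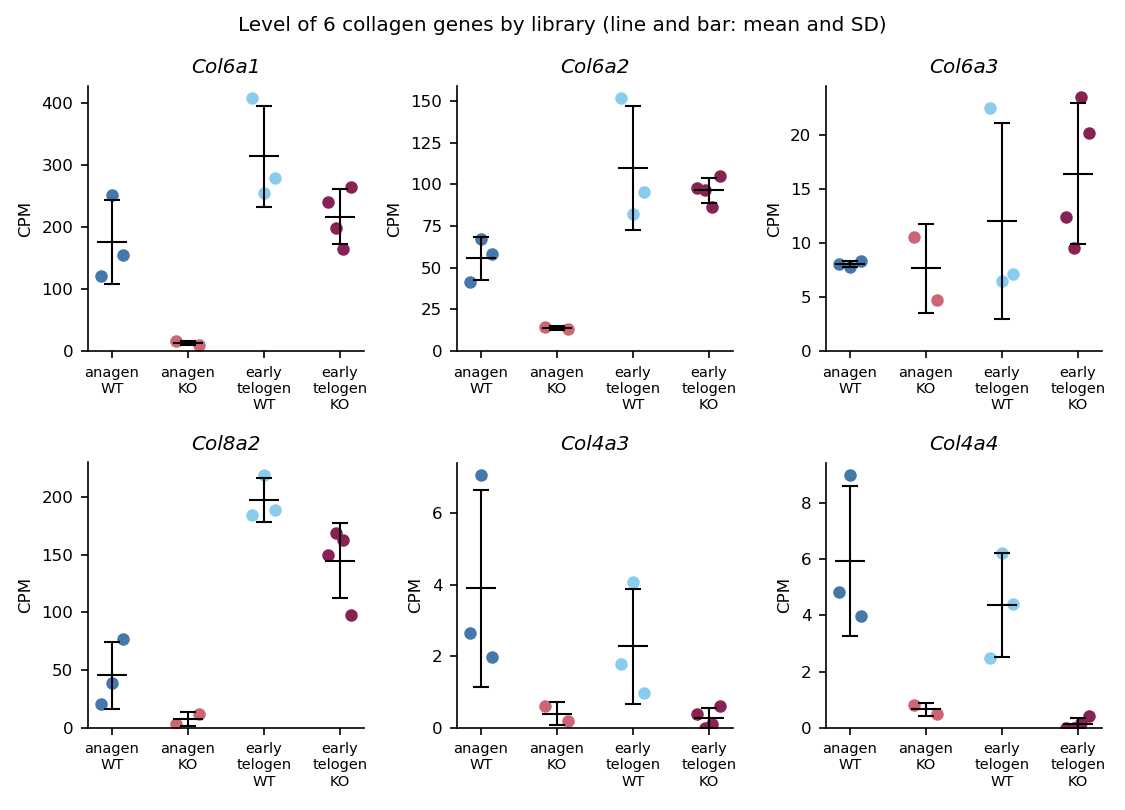
Level in CPM of 6 collagen genes in each library (points), with the mean and SD of each group. The 2 anagen KO libraries are lowest for Col6a1, Col6a2 and Col8a2, Col6a3 shows no such gap, and Col4a3 and Col4a4 are near 0 in KO at both stages.

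Collagen IV chains form the sheet-like network of basement membranes, and their genes lie in head-to-head pairs. The pair Col4a3 and Col4a4, which many tissues express far less than Col4a1 and Col4a2, was low in KO at both stages. Col4a4 was at 0.823 and 0.482 CPM in anagen KO and 4.85, 9.00 and 3.99 CPM in anagen WT. In early telogen it had 0, 0, 2 and 4 counts in KO 5, KO 1, KO 2 and KO 3, or 0, 0, 0.178 and 0.404 CPM, and 2.50, 6.21 and 4.40 CPM in WT 1, WT 3 and WT 4. No KO library reached a WT level at either stage, a pattern found in 11.2% of genes tested in anagen and 3.37% in early telogen. A count of 0 allows up to 3 counts, or 1.13 CPM in KO 5 and 0.254 CPM in KO 1, also below WT. Col4a4 entered the early telogen test through the WT libraries alone, so its lower KO values are a description and its call is no further support.

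The early telogen fall of Col4a4 had a log2 fold change of -4.79 (SE 0.87, edgeR adjusted p 0.0241), a 27.6-fold difference whose size rests on few KO counts (-5.87 without KO 3). The call was lost without KO 5 (edgeR adjusted p 0.0741), WT 3 (0.131) or WT 4 (0.0754), and without both KO 2 and WT 3 (0.129). In anagen the log2 fold change was -3.26 (SE 0.56, edgeR adjusted p 0.122). Col4a3, named here after its values were seen because it shares the promoter region, was at 0.617 and 0.172 CPM in anagen KO and 2.64, 7.06 and 1.98 CPM in anagen WT. The early telogen levels of Col4a3 were 0.376, 0, 0.0888 and 0.606 CPM in KO 5, KO 1, KO 2 and KO 3 and 1.79, 4.08 and 0.979 CPM in WT 1, WT 3 and WT 4. Its log2 fold change was -3.35 (SE 0.84, edgeR adjusted p 0.245) in anagen and -3.36 (SE 1.01, edgeR adjusted p 0.158) in early telogen. Like Col4a4 it entered the early telogen test through the WT libraries alone, with 8 counts over the 4 KO libraries, so that the size of its difference there is not exact and its lower KO values are a description. A gene on the opposite strand, C430014B12Rik, overlaps exons of Col4a3, and the strand option of the counting was not given in the sources used here, so its reads cannot be told apart from those of Col4a3.

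The main collagen IV chains moved with the stage. Col4a1 was at 1044 and 741 CPM in anagen KO and at 945, 218 and 420 CPM in anagen WT, and fell to 94.4 to 118 CPM in early telogen KO and 98.4 to 144 CPM in early telogen WT. Col4a2, which shares its start region with Col4a1, was at 671 and 640 CPM in anagen KO and at 703, 200 and 419 CPM in anagen WT, and fell to 76.8 to 90.5 CPM and 91.5 to 137 CPM. Every early telogen library was below every anagen library for both genes. Within a genotype that pattern was found in 29.9% of genes tested in WT and 23.5% in KO. The anagen WT libraries differed among themselves more than the early telogen groups did. In KO the fall was 8.49-fold for Col4a1 (log2 fold change -3.09, SE 0.26, edgeR adjusted p 3.96e-05) and 7.98-fold for Col4a2 (-3.00, SE 0.23, edgeR adjusted p 1.90e-05). In WT it was 4.01-fold for Col4a1 (SE 0.53 on the log2 scale, edgeR adjusted p 0.0324) and 3.47-fold for Col4a2 (-1.79, SE 0.44, edgeR adjusted p 0.0232). The WT call of Col4a1 was lost without anagen WT 3 (edgeR adjusted p 0.0604) or early telogen WT 1 (0.0878), WT 3 (0.0664) or WT 4 (0.1002), and its value was -1.27 without anagen WT 1. The call of Col4a2 was lost without anagen WT 3 (0.0561) or early telogen WT 1 (0.0696) or WT 4 (0.0738). Collagen IV is also made by vessel walls, and the sum of 8 pericyte and smooth muscle markers was 658 and 310 CPM in anagen KO, 569, 206 and 218 CPM in anagen WT and 183 to 345 CPM in early telogen. The sum of 10 endothelial markers was 16.5 and 23.7 CPM in anagen KO and 43.96 to 70.1 CPM in early telogen KO. In WT it was 19.3 to 27.0 CPM in anagen and 9.36 to 49.1 CPM in early telogen. Between stages in KO, edgeR called 4 of 9 endothelial markers higher and 0 lower, and 1 of 7 pericyte and smooth muscle markers higher and 2 lower. In WT it called 1 of 10 higher and 1 lower, and 0 of 7 either way. Of all genes, 10.2% were higher and 12% lower in KO, and 13.6% and 15.9% in WT. The part of either marker list in the result was not tested. In KO against WT neither gene passed, with edgeR adjusted p of 0.126 or more. For Col4a1 and Col4a2 the log2 fold change was 0.68 and 0.49 in anagen and -0.40 and -0.70 in early telogen. With sex as a covariate the anagen values were -0.16 and -0.18. That covariate sets the anagen KO libraries, both female, against WT 1 alone.

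The X-linked pair Col4a5 and Col4a6, which lie 1.31 kb apart, encodes chains found together in the basement membrane of skin. Col4a5 was at 118 and 87.9 CPM in anagen KO and at 121, 84.2 and 70.1 CPM in anagen WT, and fell to 30.2 to 47.2 CPM in early telogen KO and 18.7 to 28.2 CPM in early telogen WT. The log2 fold change between stages was -1.92 in WT (SE 0.25, edgeR adjusted p 0.00141) and -1.45 in KO (SE 0.21, edgeR adjusted p 0.00115), and both calls held with each library left out. Col4a6 was at 66.7 and 54.8 CPM in anagen KO and at 59.6, 37.1 and 57.1 CPM in anagen WT. In early telogen it was at 40.2, 62.0, 70.3 and 43.1 CPM in KO 5, KO 1, KO 2 and KO 3, and at 35.2, 19.7 and 32.5 CPM in WT 1, WT 3 and WT 4. It fell in WT (-0.74, SE 0.24, edgeR adjusted p 0.0430), a call that only leaving out anagen WT 2 kept among the 6 libraries and that reached 0.126 without anagen WT 1, 0.112 without anagen WT 3, 0.0560, 0.125 and 0.0755 without early telogen WT 1, WT 3 and WT 4. In KO it did not pass (-0.19, edgeR adjusted p 0.582). In early telogen all 4 KO libraries lay above all 3 WT libraries for both genes, a pattern found in 9.75% of genes tested and in 3 of 29 collagens. Neither gene passed, with log2 fold changes of 0.55 for Col4a5 and 0.72 for Col4a6 and edgeR adjusted p of 0.279 and 0.169.

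Col17a1 encodes collagen XVII, the transmembrane collagen of the hemidesmosome. It was at 2769 and 2813 CPM in anagen KO and at 3384, 3549 and 4892 CPM in anagen WT. The early telogen levels were 3953, 5845, 4915 and 5959 CPM in KO 5, KO 1, KO 2 and KO 3 and 7910, 6924 and 6788 CPM in WT 1, WT 3 and WT 4. Every KO library was below every WT library at its stage, a pattern found in 11.2% of genes tested in anagen and 3.37% in early telogen. Neither difference passed: the log2 fold change was -0.59 in anagen (SE 0.26, edgeR adjusted p 0.515) and -0.64 in early telogen (SE 0.23, edgeR adjusted p 0.272). From anagen to early telogen it rose 1.95-fold in WT (0.96, SE 0.21, edgeR adjusted p 0.00968), a call kept with each library left out. In KO the value was 0.90 (SE 0.30) with an edgeR adjusted p of 0.0514, and it passed without early telogen KO 2 (0.0276) or KO 5 (0.0433).

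Col7a1 encodes the collagen of anchoring fibrils. Its level was 128 and 166 CPM in anagen KO and 248, 293 and 306 CPM in anagen WT. KO lay below WT without overlap, a pattern found in 11.2% of genes tested, with a log2 fold change of -1.04 (SE 0.23, edgeR adjusted p 0.202). Early telogen levels were 233 to 432 CPM in KO and 258 to 479 CPM in WT. It rose 2.15-fold between stages in KO (1.10, SE 0.27, edgeR adjusted p 0.0148), which was lost without anagen KO 1 (0.140), and in WT the value was 0.41 (edgeR adjusted p 0.163). Col18a1, of the multiplexin class, encodes the basement membrane collagen that is the source of endostatin. It was at 1533 and 1433 CPM in anagen KO and at 1310, 815 and 1308 CPM in anagen WT, and at 386, 404, 305 and 540 CPM in KO 5, KO 1, KO 2 and KO 3 and 715, 726 and 740 CPM in WT 1, WT 3 and WT 4 of early telogen. KO was thus above WT in anagen and below it in early telogen, without overlap at either stage (patterns found in 18.5% and 3.37% of genes tested). The log2 fold change was 0.29 in anagen (edgeR adjusted p 0.781) and -0.98 in early telogen (SE 0.25, edgeR adjusted p 0.0925), and the difference of -1.28 between them had an edgeR adjusted p of 0.372. The early telogen value passed without KO 3 (0.0317). Between stages Col18a1 fell 3.56-fold in KO (-1.83, SE 0.30, edgeR adjusted p 0.00220), also with each library left out. In WT the value was -0.56 (edgeR adjusted p 0.0709), and it passed without anagen WT 2 (0.0174).

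Col8a2 and Col8a1 encode the chains of collagen VIII, a short-chain network collagen. Col8a2 was at 2.88 and 11.99 CPM in anagen KO and at 20.4, 38.5 and 76.9 CPM in anagen WT. In early telogen it was at 150, 169, 163 and 97.8 CPM in KO 5, KO 1, KO 2 and KO 3 and at 184, 219 and 189 CPM in WT 1, WT 3 and WT 4. KO was below WT at both stages without overlap, a pattern found in 11.2% of genes tested in anagen and 3.37% in early telogen. The log2 fold changes were -2.71 (SE 0.79, edgeR adjusted p 0.328) and -0.63 (SE 0.20, edgeR adjusted p 0.184). It rose between stages 4.69-fold in WT (2.23, SE 0.46, edgeR adjusted p 0.0142) and 19.4-fold in KO (4.27, SE 0.56, edgeR adjusted p 0.000958). The WT call was lost without anagen WT 2 (0.0576), and the WT value was 2.85 without anagen WT 3. The size in KO differed with the anagen library left out: the stage value was 3.56 without KO 1 and 5.59 without KO 2, and the anagen value of KO over WT was -2.02 and -4.06. Col8a1 was far lower in most libraries, at 15.3 and 10.96 CPM in anagen KO, 11.2, 5.89 and 4.63 CPM in anagen WT and 1.87 to 5.87 CPM in early telogen. It fell in KO (-2.02, SE 0.42, edgeR adjusted p 0.00708; 0.0656 without anagen KO 1) while Col8a2 rose, and in WT its value was -0.79 (edgeR adjusted p 0.261).

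FACIT collagens decorate the surface of fibrils. Col16a1 was at 683 and 722 CPM in anagen KO and at 401, 127 and 431 CPM in anagen WT, and Col12a1 at 815 and 882 CPM and at 688, 216 and 499 CPM in the same libraries. Both KO values were above all WT values for both genes, a pattern found in 18.5% of genes tested and in 3 of 35 collagens. The log2 fold changes were 1.05 (SE 0.48, edgeR adjusted p 0.539) and 0.77 (SE 0.44, edgeR adjusted p 0.619). In early telogen Col16a1 was at 35.3 to 105 CPM in KO and 42.3 to 86.1 CPM in WT, and Col12a1 at 102 to 327 CPM and 127 to 253 CPM. Col16a1 fell 12.6-fold between stages in KO (-3.66, SE 0.34, edgeR adjusted p 7.35e-05) and 5.10-fold in WT (-2.35, SE 0.50, edgeR adjusted p 0.0160). The WT call was lost without anagen WT 1 (0.0553) or early telogen WT 3 (0.0540) or WT 4 (0.0592). Col12a1 fell 3.73-fold in KO (-1.90, SE 0.43, edgeR adjusted p 0.0127), which was lost without anagen KO 1 (0.0561) or KO 2 (0.0751). In WT the value was -1.34 (edgeR adjusted p 0.0568), and it passed without anagen WT 2 (0.00805) or early telogen WT 1 (0.0483). Col14a1 was at 3.24 and 26.4 CPM in anagen KO and 6.37, 10.4 and 86.9 CPM in anagen WT, highest in both groups in the library titled P31. Its anagen log2 fold change of -1.32 (SE 1.31) turned to 0.72 without WT 3 and to 1.13 with sex as a covariate. The last value sets KO against WT 1 alone, the only female WT library. In early telogen it was at 3.84 to 6.34 CPM in KO and at 2.41, 0 and 0.816 CPM in WT, with a log2 fold change of 2.14 (SE 0.82, edgeR adjusted p 0.301).

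**Figure D4:**
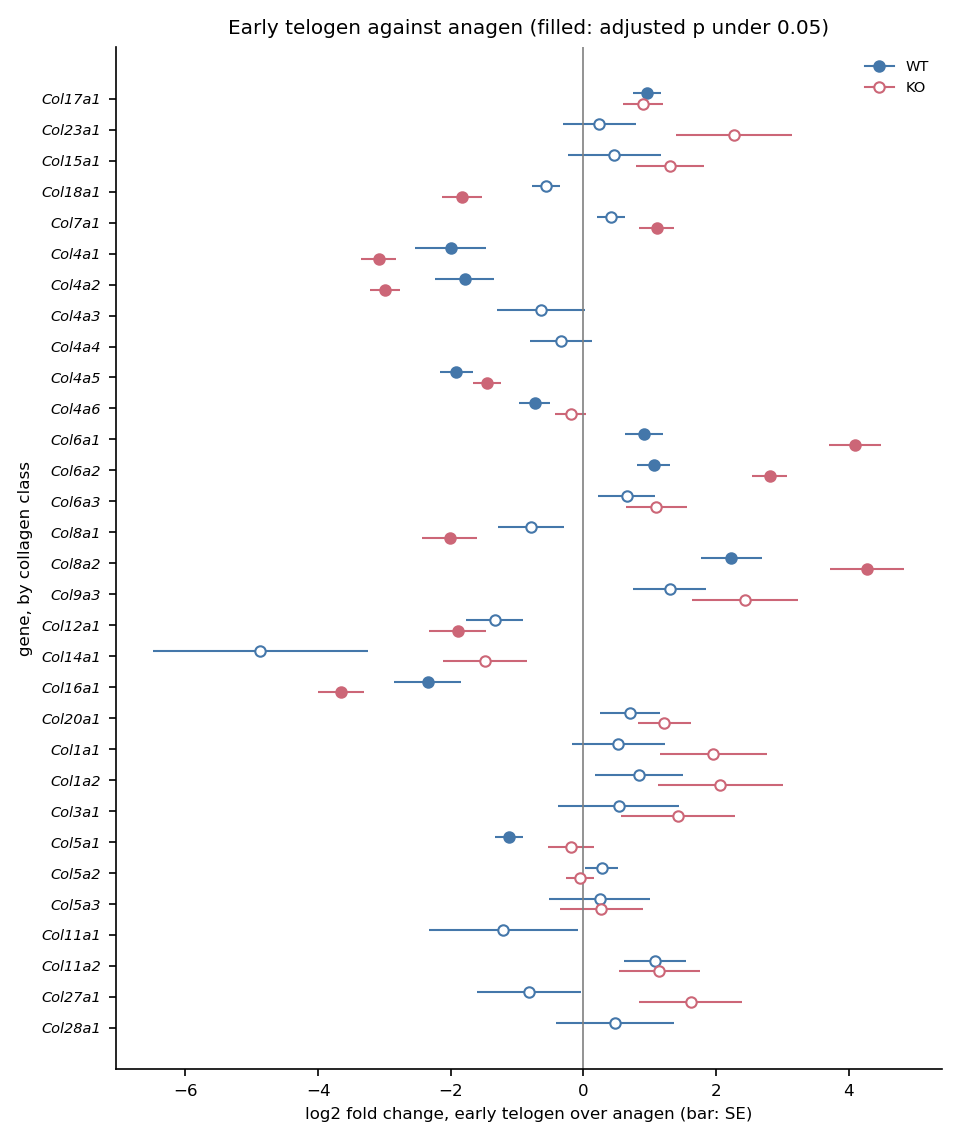
Log2 fold change of early telogen over anagen for each collagen tested, by class, in WT and in KO, with bars for the SE worked back from the test. Filled points passed the edgeR test. Collagen IV chains Col4a1, Col4a2 and Col4a5 and Col16a1 are filled on the left in both genotypes, and Col6a1, Col6a2 and Col8a2 are filled on the right in both.

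The main fibrillar collagens of the dermis, Col1a1, Col1a2 and Col3a1, passed in no comparison in edgeR, and their levels differed widely among the early telogen libraries. Col1a1 was at 258 and 140 CPM in anagen KO and 265, 102 and 353 CPM in anagen WT, and at 222, 556, 2097 and 437 CPM in KO 5, KO 1, KO 2 and KO 3 and 583, 98.7 and 309 CPM in WT 1, WT 3 and WT 4 of early telogen. Col1a2, which encodes the other chain of collagen I, was at 75.4 to 254 CPM in anagen and 95.4 to 1694 CPM in early telogen. Col3a1 was at 55.5 to 188 CPM and 29.1 to 1023 CPM. For all 3 genes the highest early telogen library was KO 2, and WT 3 was the lowest. No difference between KO and WT passed: the early telogen log2 fold changes were 1.09 (SE 0.88) for Col1a1, 0.88 (SE 0.93) for Col1a2 and 0.97 (SE 1.08) for Col3a1, with edgeR adjusted p of 0.706, 0.789 and 0.803. Without KO 2 the value for Col1a2 was -0.0095, and without KO 2 and WT 3 the values were -0.19, -0.42 and -0.35. Between the stages the log2 fold changes in KO were 1.96 (SE 0.80), 2.06 (SE 0.94) and 1.42 (SE 0.86), with edgeR adjusted p of 0.117, 0.156 and 0.272. Without early telogen KO 5 Col1a1 and Col1a2 passed (0.0424 and 0.0390), without the filter on low counts all 3 passed, and without KO 2 the values were 1.10, 1.17 and 0.60. In WT they were 0.52, 0.83 and 0.53, with edgeR adjusted p of 0.400 or more. The sum of 13 fibroblast markers other than collagens was 535 CPM in KO 2 and 224 to 386 CPM in the other early telogen KO libraries, 203 to 284 CPM in early telogen WT, 188 and 194 CPM in anagen KO and 165 to 263 CPM in anagen WT, with at most 1 of the 13 at 0 in a library. Its part in the spread of the fibrillar collagens was not tested.

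**Figure D5:**
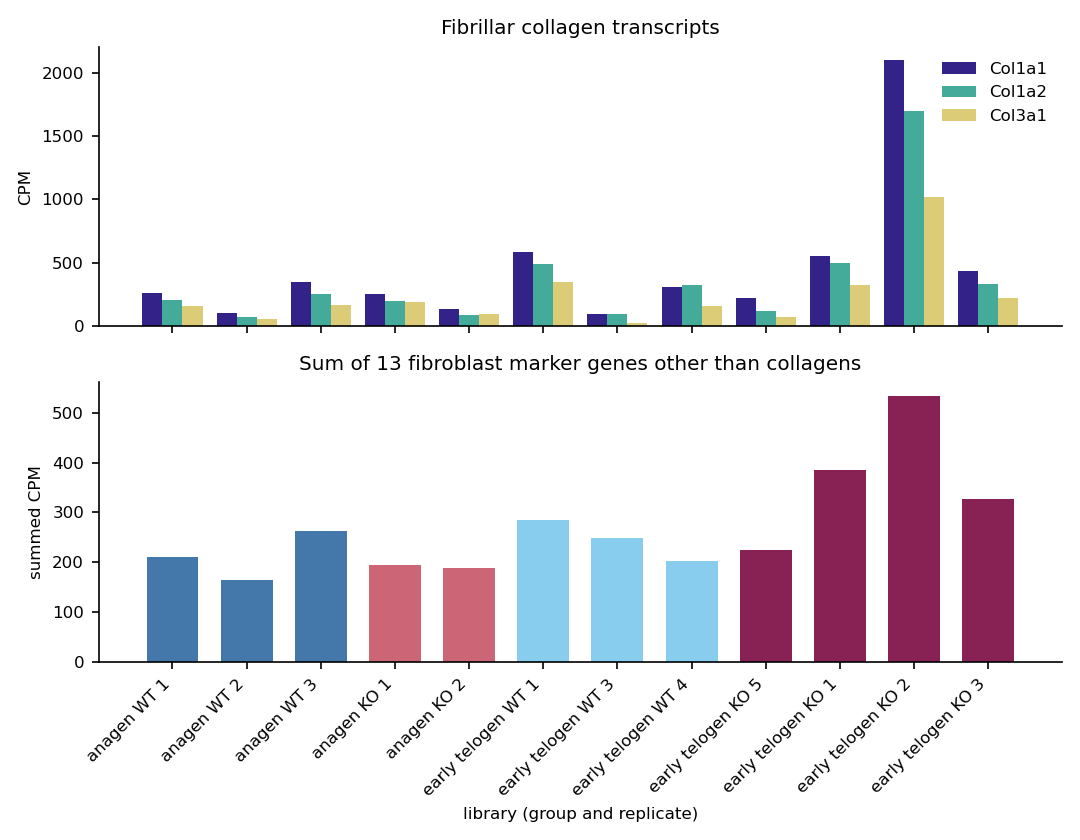
Upper panel, CPM of Col1a1, Col1a2 and Col3a1 in each library; lower panel, summed CPM of 13 fibroblast markers in the same libraries. KO 2 of early telogen is highest in both panels, with 2097 CPM of Col1a1 and a marker sum of 535 CPM.

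Collagen V is a minor component that starts the assembly of collagen I fibrils, and its main chains come from Col5a1 and Col5a2. Col5a1 was at 43.8 and 42.5 CPM in anagen KO and at 74.8, 64.7 and 48.5 CPM in anagen WT. Early telogen levels were 22.9 to 60.2 CPM in KO and 24.5, 30.0 and 26.3 CPM in WT. It fell in WT (-1.13, SE 0.21, edgeR adjusted p 0.00502), also with each library left out, while the value in KO was -0.19 (edgeR adjusted p 0.725). The difference between these changes, the same test as that of the KO effect between stages, was 0.92 (SE 0.44) with an edgeR adjusted p of 0.790, so it was not shown to differ between genotypes. Exons of Col5a1 overlap genes on the opposite strand. Col5a2 was at 66.3 to 113 CPM in anagen and 77.1 to 121 CPM in early telogen, with overlapping groups throughout, and passed in no comparison. The remaining fibrillar members, Col2a1, Col5a3, Col11a1, Col11a2, Col24a1 and Col27a1, were at or below 8.35 CPM in every library and passed in no comparison.

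The other members that were tested were low. Col15a1 reached 20.6 CPM, Col20a1 17.5 CPM, Col9a3 3.76 CPM, Col28a1 1.87 CPM, Col25a1 1.37 CPM and Col9a2 0.671 CPM, and none passed in a comparison in which it was tested. Col23a1, named after its values were seen, was at 1.62 to 2.31 CPM in anagen and 0.834 to 5.05 CPM in 6 of the 7 early telogen libraries, with 28.1 CPM in KO 2.

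Collagen chains depend on partner genes, and 71 of them, in 5 lists, were examined beside the collagens. All 71 were found in the anagen table, but 19 of 23 synthesis and folding genes and 7 of 8 hemidesmosome partners in that of early telogen. Between KO and WT none passed in anagen (0 of 65 tested) or in early telogen (0 of 57), and none had a KO effect that passed as different between stages (0 of 58) in edgeR. At an unadjusted p under 0.05 they were 6, 9 and 5, and DESeq2 called 2, 2 and 0, all lower in KO. Of all genes, 1456, 1448 and 841 had such a p, and DESeq2 called 408 lower in anagen KO and 182 in early telogen KO. At these comparisons the lists' combined median log2 fold changes were 0.01, -0.06 and -0.08, against 0.02, 0.03 and 0.04 for all genes. By list, the anagen and early telogen medians were 0.01 and -0.04 for synthesis and folding and 0.11 and 0.23 for processing and crosslinking. They were 0.14 and 0.20 for degradation and its inhibitors, 0.11 and -0.39 for receptors and -0.40 and -0.49 for hemidesmosome partners. Of the hemidesmosome partners, 7 of 8 tested were negative in anagen and 7 of 7 in early telogen, and none passed. In anagen the smallest p-values were those of Lamb3, a chain of laminin 332 that binds the hemidesmosome (-1.28, edgeR adjusted p 0.109), Plod1, a lysyl hydroxylase (-1.04, 0.290), Pcolce2, an enhancer of procollagen cleavage (-2.80, 0.302), Sec24d of the secretory coat (-0.59, 0.343) and Timp3, a metalloproteinase inhibitor (1.54, 0.385). Bmp1 (0.58), Adam10 (0.40), Itga11 (1.23, and -0.10 without KO 2), Itga1 (0.74, and -0.19 with sex as a covariate) and Dst (-0.42) had edgeR adjusted p of 0.566 or more. The value with sex sets anagen KO against WT 1 alone, the only female WT library. In early telogen they were Adam10 (0.57, edgeR adjusted p 0.148), the collagen receptor Ddr1 (-0.77, 0.174), Itgb4, the hemidesmosome integrin (-0.73, 0.184), Adamts3 (1.81, 0.276) and Dst (-0.57, 0.306). Crtap (0.71), Creb3l1 (-0.72), Pcolce2 (-0.92), Mmp14 (-0.46) and Itgb1 (-0.39) had edgeR adjusted p of 0.355 or more.

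Between the stages, 9 of 57 partner genes rose and 12 fell in WT, and 7 of 57 rose and 12 fell in KO. The shares of all genes called were those given for the collagens, 29.5% and 22.2%. Of the WT calls, 9 of 21 were kept with each library left out, and of the KO calls 10 of 19. The 12 lower calls in WT were 6 without anagen WT 1, 6 without early telogen WT 3 and 5 without early telogen WT 4. Of all genes, 1410 of 12145, 1275 of 13723 and 1257 of 13757 were lower in these fits. The 7 higher calls in KO were 3 without anagen KO 1 and 2 without anagen KO 2, where 682 of 13640 and 544 of 13511 genes were higher. Genes that fell in both genotypes and kept both calls were Serpinh1, the collagen chaperone HSP47 (-1.20 in WT, SE 0.17, and -1.50 in KO, SE 0.22, edgeR adjusted p 0.00163 and 0.00116), Bmp1, which removes the C-terminal propeptide of procollagens (-1.93 and -2.32), and Timp1, an inhibitor of matrix metalloproteinases (-4.01 and -5.38, and -5.02 in WT without early telogen WT 3). Lamb3 rose in both and kept both calls (1.16 in WT, edgeR adjusted p 0.00183, and 1.95 in KO, edgeR adjusted p 0.000722). Also kept in WT, among others, were rises of Lama3 (1.74), another chain of laminin 332, and of the collagen receptor chains Itga2 (3.25, and 3.85 without anagen WT 1) and Itgb1 (0.96), and a fall of Crtap (-1.12), part of the prolyl 3-hydroxylation complex. Also kept in KO were falls of Lepre1 (-2.33), the enzyme of that complex, Loxl2 (-3.31, and -2.57 without anagen KO 1), a crosslinking lysyl oxidase, Timp3 (-2.42), Mmp14 (-1.23), Itga1 (-2.21) and Cd151 (-1.09). By list, synthesis and folding held 1 higher and 6 lower of 17 tested in WT and 2 and 2 in KO. Hemidesmosome partners held 4 higher and 1 lower of 7 in WT and 1 and 1 in KO. The counts of processing and crosslinking were 1 and 1 of 12 in WT and 2 and 4 in KO. Those of degradation and its inhibitors were 0 and 3 of 14 in WT and 1 and 4 in KO, and those of receptors 3 and 1 of 7 in WT and 1 and 1 in KO.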

How the data were processed

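Poly(A) RNA of sorted hair follicle stem cells was measured in 12 libraries of 4 groups, made with a directional kit per the labels' protocols. The deposited values are whole-number counts of reads per gene, 1 table per stage, which the authors made with TopHat2, HTSeq and build mm10 per the submitters' processing notes. Settings, the strand option and any batch were not given in the sources used here. In the anagen table, 20.1% to 32.8% of reads were tallied as placed at more than 1 position and 7.55% to 9.43% as in no feature, and tallies were left out. In the tables, 3 broken lines were left out and 27 gene names had turned into dates.

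CPM used each library's gene counts. Lengths are exons of basic coding transcripts (GENCODE, GRCm38), and 4 list names were matched by older symbols. Tests were edgeR 4.0.16 quasi-likelihood fits (R 4.3.3; filterByExpr with a minimum count of 10 and total of 15; TMM) of the 2 groups compared, without a replicate block, and of all 12 libraries for the difference of the KO effect. The fits of 2 groups, but not that of all 12 libraries, were also run on simulated counts, whose outcome is not given here. Alternatives were DESeq2 1.42.0, its size factors, no filter, 1 fit of all libraries, sex, a replicate block and leaving out libraries. Figures used Python 3.11.15 and matplotlib 3.10.9.

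Collagens were named if they passed a comparison, were among its 3 smallest p-values in a direction with at least 5 CPM in a group, had a group mean of at least 20 CPM, or belonged to a set of 16. Of the partner lists, the rule named genes that passed or otherwise had the 2 smallest p-values. Of those that passed between stages, the text gives the ones whose call held with each library left out, except 1 whose values are not reported here. The members and lists were chosen with earlier results of these data known. Marker lists of dermal papilla, Schwann, melanocyte, immune, and adipocyte and muscle cells summed to at most 29.1, 108, 137, 247 and 25.2 CPM in any library.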

Additional observations from a re-analysis of the deposited data

Results flagged for a closer look

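In the 4 early telogen KO libraries, Col16a1 and Col23a1 had 1 library far from the others. Col16a1 was at 105 CPM in KO 2 and at 35.3 to 45.6 CPM in the other 3, and Col23a1 was at 28.1 CPM in KO 2 and at 3.01 to 5.05 CPM in the other 3. The gap made up 0.853 and 0.918 of the range of the group, above the critical value of Dixon's test for 4 samples. Of 29 collagens examined in this way 2 stood out, and chance gives about 1 in 20. KO 2 is the library with the highest fibrillar collagens and the highest sums of fibroblast and of differentiation markers.

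The effect of the knockout on Col6a1 passed as different between the stages, with a log2 fold change of KO over WT that was higher by 3.17 in early telogen than in anagen (SE 0.48, edgeR adjusted p 0.0229). The call was kept in 7 of the 12 fits with 1 library left out, with an edgeR adjusted p of up to 0.135. It was lost without either anagen KO library, and stage, table and depth cannot be told apart. The 2 anagen KO libraries were at 15.6 and 10.3 CPM against 120 to 252 CPM in anagen WT, and the early telogen libraries at 165 to 264 CPM in KO and 255 to 407 CPM in WT.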

How the results depend on the processing

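The labels share replicate numbers or days between KO and WT, but samples of the same number were not taken as pairs: their deviations from the group means correlated by 0.106 and 0.0532 in early telogen, and in anagen, where 2 KO libraries mirror each other, by 0.414 and 0.359. With the number or title day as a replicate block, the collagens lower in KO were 6 in anagen and 0 in early telogen (Col4a4, adjusted p 0.286), and the partner genes 1 higher and 2 lower in anagen. With the block, 46 of 14409 genes were higher and 207 lower in anagen KO, and 7 of 12030 were lower in early telogen KO. Each block fit left 1 residual degree of freedom, and its KO values rest on the libraries that share a block with the other genotype. In early telogen these are KO 1, KO 3, WT 1 and WT 3, and in anagen KO 1, KO 2, WT 1 and WT 3. The collagens lower in anagen KO were 6 with DESeq2, 5 without the filter and 2 in the fit of all 12 libraries, with 2, 2 and 1 partner genes. Of all genes, 408 of 22214, 249 of 22214 and 147 of 13193 were lower. In early telogen the collagens lower in KO were 2 with DESeq2, without the filter and with sex as a covariate, and 0 without KO 2 and WT 3. DESeq2 called 2 partner genes lower there. Of all genes, 182 of 18235, 171 of 18235, 88 of 12030 and 22 of 12044 were lower in these 4 fits. Collagens higher between stages in KO were 7 with DESeq2's size factors, 9 with DESeq2 and 11 without the filter, and partner genes were 11 and 13 with the last 2. Of all genes, 1380 of 12771, 1837 of 20170 and 1598 of 20170 were higher. The KO effect differed between stages for 2 collagens with DESeq2, and without the filter for 6 higher, 3 lower and 1 partner gene. Of 22335 genes, 131 were higher and 17 lower with DESeq2, and 316 higher and 93 lower without the filter. Leaving out 1 library gave 0 to 2 collagens lower in KO at each stage. All genes called lower numbered 0 to 81 in anagen KO and 10 to 78 in early telogen KO. Between stages in WT, 2 to 8 collagens and 5 to 14 partner genes were lower, and 1257 to 1699 of all genes. Between stages in KO, 3 to 8 collagens and 2 to 10 partner genes were higher, and 544 to 1771 of all genes. A KO effect higher in early telogen than in anagen was called for 0 to 2 collagens and 0 to 51 of all genes. Signs turned for Col14a1 (1.13 with sex), Col4a1 (-0.16 with sex), Col4a2 (-0.18 with sex) and Itga1 (-0.19 with sex) in anagen and for Col1a1 (-0.19), Col1a2 (-0.42) and Col3a1 (-0.35) without KO 2 and WT 3 in early telogen. With 1 library left out, the log2 fold change of KO over WT ran from -3.49 to 0.72 for Col14a1, from -0.87 to 0.30 for Col6a3 and from -0.10 to 1.91 for Itga11 in anagen, and from -0.0095 to 1.36 for Col1a2 in early telogen. In the anagen fit with sex, both KO libraries, which were female, are set against WT 1 alone, the only female WT library. The cause of the other changes was not tested, except that fits with a library left out or a block have fewer degrees of freedom. Depth limits the low genes: 3 counts are 1.13 CPM in KO 5 of early telogen.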

Other observations

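Chains that assemble together can be compared within a library, as ratios of their levels per kb. Col4a1 and Col4a2 stayed near parity, at 0.961 to 1.52 over the 12 libraries, although both varied widely in level. The ratio of Col4a5 to Col4a6 was 1.25 to 2.31 in the 5 anagen libraries and 0.542 to 1.12 in the 7 early telogen libraries, with no overlap. That of Col8a1 to Col8a2 was 0.775 and 4.49 in anagen KO, 0.0511 to 0.464 in anagen WT and 0.00862 to 0.0263 in early telogen, so that Col8a1 exceeded Col8a2 only in the library of anagen KO 1. The ratio of Col1a1 to Col1a2 was 0.852 to 1.65 in all 12 libraries, among them KO 2 of early telogen, where both were highest. These ratios were not tested.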
